A study of Homo sapiens with 8 samples.

Results

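CpG-dense stretches of the genome with little DNA methylation at the start were followed through the loss of the maintenance methyltransferase. They were chosen by their measured methylation on days 0 and 1: 1-kb tiles of the hg19 autosomes with 5% or less of the pooled reads of these days methylated, 40 or more CpGs listed in any library, and 10 or more CpGs covered by 10 reads or more in every one of the 5 deeply sequenced libraries. This gave 8067 tiles with 392265 CpGs past the read minimum, out of 10655 tiles that met the density and read conditions and 426058 autosomal tiles with any listed CpG. The cells were HUES64, an established human embryonic stem cell line, of a derivative whose genotype the labels give as a DNMT1 knockout, sampled at days 0 to 7 of a withdrawal of DNMT1*, an added copy of the enzyme. All 8 libraries come from that knockout, each day has 1 library of a single course with no replicate, and no library of unmodified HUES64 cells was used here. CpG methylation was read by reduced representation bisulfite sequencing (RRBS), which samples DNA near MspI sites and turns unmethylated cytosines into thymines, so that a share of methylated reads is measured at each CpG.

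DNMT1 copies CpG methylation onto the new DNA strand after replication, whereas DNMT3A and DNMT3B can methylate CpGs that have none. CpG islands, the CpG-dense stretches found at many gene starts, are usually unmethylated. CXXC-domain proteins that bind unmethylated CpGs, and the trimethylation of lysine 4 on histone H3, which DNMT3 enzymes do not tolerate, are known to keep them so. The less CpG-dense sequence that flanks an island is called its shore.

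Gene starts were tied to tiles by sequence: a 300-base RefSeq promoter (GRCh38.p14) was placed where at least 10 listed CpGs, and every listed CpG within it, fell on a CG of that promoter at exactly the same spacing. Of 11430 promoters placed at a single position, 11414 fell on the chromosome that RefSeq gives, a fact not used to place them. The placed starts put 4651 genes into 4031 of the 8067 tiles, against 54 of 1290 tiles (4.19%) past the same density and read minimums that were at 80% or more on days 0 and 1. The lines below give the 250 bases before the start (5′ to 3′ on the strand of the gene, RefSeq GRCh38.p14, with positions in hg19) at 6 member tiles, with CpGs past the read minimum in capitals. LINC02939, at chr22:46466902-46467151 on the minus strand, had more measured CpGs in this stretch than any other placed start in a member tile, 44. This stretch runs past the border of the member tile that holds the start, so its counts include CpGs of the next tile. PLBD2 (chr12:113796142-113796391, plus) and ZCCHC14 (chr16:87526631-87526880, minus) lie in tiles with the largest fitted falls. PAX6 (chr11:31826590-31826839, minus) and CYBA (chr16:88717462-88717711, minus) lie in tiles with the largest fitted rises, and LINC02323 (chr14:103011341-103011590, plus) in one of the tiles with the highest level on days 6 and 7.
LINC02939: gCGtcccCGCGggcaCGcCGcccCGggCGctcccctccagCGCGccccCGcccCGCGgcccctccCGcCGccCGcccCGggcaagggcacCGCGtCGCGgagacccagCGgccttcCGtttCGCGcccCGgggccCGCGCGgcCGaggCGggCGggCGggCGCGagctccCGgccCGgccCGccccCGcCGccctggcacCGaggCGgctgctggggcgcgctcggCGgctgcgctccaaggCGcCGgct
PLBD2: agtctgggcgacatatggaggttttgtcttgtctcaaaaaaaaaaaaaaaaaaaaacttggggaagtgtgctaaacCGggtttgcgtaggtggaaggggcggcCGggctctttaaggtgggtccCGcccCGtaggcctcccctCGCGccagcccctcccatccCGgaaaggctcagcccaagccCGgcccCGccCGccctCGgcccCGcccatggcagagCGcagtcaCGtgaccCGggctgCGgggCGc
ZCCHC14: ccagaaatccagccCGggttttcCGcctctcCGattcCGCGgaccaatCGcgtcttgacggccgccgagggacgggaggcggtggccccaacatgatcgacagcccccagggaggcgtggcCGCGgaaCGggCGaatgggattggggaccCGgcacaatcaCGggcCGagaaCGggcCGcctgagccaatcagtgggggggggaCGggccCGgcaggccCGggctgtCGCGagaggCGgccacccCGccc
PAX6: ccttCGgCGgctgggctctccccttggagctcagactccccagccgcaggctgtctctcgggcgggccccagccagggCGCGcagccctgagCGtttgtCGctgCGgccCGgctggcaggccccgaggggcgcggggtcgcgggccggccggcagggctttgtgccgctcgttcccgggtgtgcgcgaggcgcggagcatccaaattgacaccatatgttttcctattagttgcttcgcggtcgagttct
CYBA: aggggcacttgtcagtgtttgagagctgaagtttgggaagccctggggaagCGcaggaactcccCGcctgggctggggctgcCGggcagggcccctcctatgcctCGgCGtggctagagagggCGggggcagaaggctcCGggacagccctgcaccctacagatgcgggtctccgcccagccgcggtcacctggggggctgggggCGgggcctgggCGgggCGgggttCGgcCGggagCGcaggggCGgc
LINC02323: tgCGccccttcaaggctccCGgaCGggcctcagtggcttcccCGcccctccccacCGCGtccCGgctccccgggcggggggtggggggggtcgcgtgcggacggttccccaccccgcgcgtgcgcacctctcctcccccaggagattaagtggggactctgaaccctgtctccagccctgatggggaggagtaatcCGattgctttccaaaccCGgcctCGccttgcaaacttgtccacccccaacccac

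At LINC02939, the most CpG-rich of these stretches, 0 of 1950, 0 of 1036, 0 of 1637, 0 of 225, 0 of 108, 0 of 210, 2 of 1412 and 0 of 1884 reads were methylated on days 0 to 7. A count of 0 allows up to 0.159% on day 7 and up to 2.78% on day 4, the shallowest day there. Promoters placed in member tiles had a median of 36 CpGs in 300 bases, 73.7% G and C and a CpG observed-to-expected ratio of 0.916, against 27, 66.7% and 0.832 in all RefSeq promoters with 10 or more CpGs. GGGCGG, the letters of the GC box that SP1 binds, was found on either strand in 89.1% of 5306 placed member promoters and in 73.0% of the 19591 RefSeq promoters with 10 or more CpGs. Searched the same way, TATAAA was found in 2.81% of the member promoters and 4.26% of those with 10 or more CpGs, and CCAAT in 27.3% and 31.9%. Over all 34796 RefSeq promoters the shares were 44.9% for GGGCGG, 11.6% for TATAAA and 34.6% for CCAAT. The member tiles were required to be CpG-dense and placed promoters to hold 10 CpGs, so the GC content and the GC-box share follow partly from the choice.

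Depth was 77691782 to 161534152 CpG read calls in the 5 deep libraries (days 0, 1, 2, 6 and 7) and 12359218 to 15156251 in the 3 shallow ones (days 3, 4 and 5). Within the member tiles the median was 1372 to 2573 reads per tile in the 5 deep libraries and 198 to 245 in the 3 shallow ones. The 8067 tiles formed 6757 runs of adjacent members, 5606 of them a single tile and the longest 5 tiles. They had a median of 55 listed CpGs, and lay on all 22 autosomes, where they made up 60.8% (chromosome 19) to 81.9% (chromosome 6) of the dense tiles.

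Methylation in these tiles was low at the start and became lower. On days 0 and 1, which chose the tiles, 0.544% and 0.473% of their reads were methylated. On days 2 to 7, which did not, the level was 0.418%, 0.365%, 0.285%, 0.278%, 0.193% and 0.172%, from 1674321 to 21844757 reads per day, with Wilson 95% intervals that reached at most 0.0083 points from the value. Each day was lower than the one before it, though the intervals of days 4 and 5 overlap. The slope over days 2 to 7 was -0.0501 ± 0.0046 points per day (SE, n = 6 libraries). An exact two-sided permutation of the days gave p = 0.00278, the smallest of its 720 orders, with 0.00694 as its Benjamini-Hochberg adjusted value in a family of 5 tests on library levels. DNA of many cells was pooled in each library, so fewer cells with methylation and less methylation per cell cannot be told apart. Among the deep libraries alone, days 2, 6 and 7, the slope was -0.0512 points per day, and 3 days cannot pass a permutation test.

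The tiles did not all contribute alike. The median tile read 0.0936% on day 7 and 0.133% on day 2, while the 90th percentile was 0.440% on day 7, against 1.22% on day 2. On day 7, 1538 tiles (19.1%) had no methylated read, 139 (1.72%) stood at 1% or more, and none at 5% or more. On day 2, 953 tiles (11.8%) had no methylated read and 983 (12.2%) stood at 1% or more. The highest tile read 2.61% on day 7 and 6.45% on day 2. Tile levels on day 2 and on days 6 and 7 pooled correlated at r = 0.804 over the 8067 tiles, which share the libraries and their read depths. The tenth of tiles ranked highest on day 2 (806 tiles) gave 36.5% of all methylated reads of the members on day 7, against 54.9% on day 2. The 4033 tiles ranked lowest on day 2 read 0.0686% on day 7, against 0.0578% on day 2. Both sets were ranked on day 2, so their change was not tested.

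**Figure D1:**
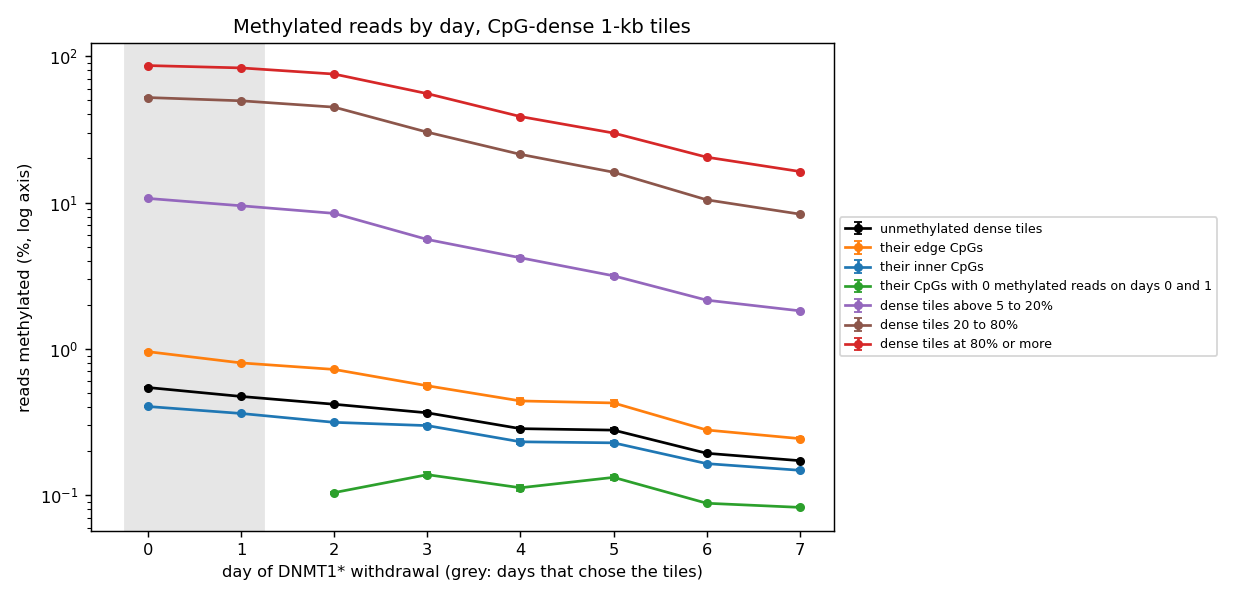
Share of methylated reads (log axis) by day of DNMT1* withdrawal for the unmethylated dense tiles, their edge and inner CpGs, their CpGs with no methylated read on days 0 and 1, and the 3 classes of dense tiles with higher starting levels. Bars are Wilson 95% intervals, mostly smaller than the points, and the grey band marks the days that chose the tiles. The members went down to 0.172% on day 7, while the CpGs at 0 stayed between 0.0825% and 0.138% on days 2 to 7.

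The background was read from the 342638 member CpGs (87.3%) that had no methylated read on days 0 and 1. On days 2 to 7 these read 0.104%, 0.138%, 0.112%, 0.132%, 0.0880% and 0.0825% methylated. Days 3 to 5, the shallow libraries, were the highest of the 6. Their level changed by -0.0068 ± 0.0050 points each day (SE, n = 6), which did not pass (exact permutation p = 0.244, unchanged by the adjustment). Incomplete bisulfite conversion, sequencing error and true methylation cannot be told apart at this level. On day 7, 331018 of these CpGs (96.6%) again had no methylated read. These CpGs gave 40.6% of the methylated reads of the members on day 7, against 21.1% on day 2, so that the distance between the members and this background shrank to 0.0895 points on day 7, against 0.314 on day 2.

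Few CpGs gave a share of the methylated reads well above their number, and this share shrank with the days. Most of the residual reads of day 7 came from the many CpGs that started low. Those at 0 at the start gave 40.6% and those between 1% and 5% gave 20.1%. The 1844 member CpGs above 20% on days 0 and 1, 0.470% of all, gave 17.8% of the methylated reads on day 7 and 33.9% on day 2. Their level was 31.1%, 19.8%, 13.7%, 11.4%, 7.90% and 6.85% on days 2 to 7. The 5311 CpGs between 5% and 20% read 6.64%, 4.34%, 3.23%, 2.81%, 2.03% and 1.80% on the same days. The 30004 CpGs between 1% and 5% read 0.438% on day 7 and 0.932% on day 2, and the 12468 CpGs above 0 and up to 1% read 0.208% on day 7 and 0.336% on day 2. The drop between days 1 and 2 in the lower classes, such as 0.932% on day 2, against 1.97% on day 1, between 1% and 5%, includes an effect of setting the classes on days 0 and 1. When CpGs above 5% at the start were left out, an alternative added with the data in view, the slope of the members over days 2 to 7 was -0.0154 ± 0.0052 points per day and did not pass (exact permutation p = 0.0556, adjusted 0.0926). Without those above 20% it was -0.0285 and passed (exact permutation p = 0.00556, adjusted 0.0139).

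**Figure D2:**
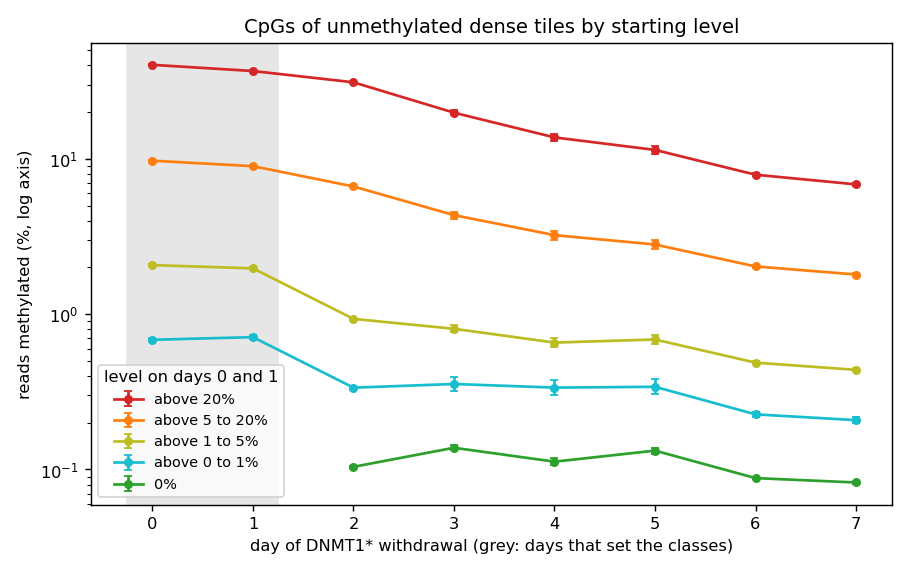
Share of methylated reads (log axis) by day for member CpGs in 5 classes of their level on days 0 and 1, with Wilson 95% intervals. The grey band marks the days that set the classes. CpGs above 20% stood at 6.85% on day 7 and 31.1% on day 2, and CpGs at 0 on days 0 and 1 show no point on those days.

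Pooled over all ends, edge CpGs carried more methylation than inner CpGs, though not at ends beside a tile at 5% or less. Edge CpGs are the 98147 within 200 bp of the outer end of a run of member tiles, and inner CpGs the other 294118. Tile borders lie on a fixed 1-kb grid, so an edge here is the border of the counted stretch and need not be the border of an island. Beyond each edge lies a tile that did not meet the rule, which includes the level on days 0 and 1. A higher edge therefore follows partly from the choice of tiles. On days 2 to 7 edge CpGs read 0.723%, 0.559%, 0.440%, 0.427%, 0.279% and 0.243%, and inner CpGs 0.314%, 0.299%, 0.231%, 0.228%, 0.164% and 0.148%. The edge was higher on all 6 days, by 0.214 ± 0.046 points on average (SE over the 6 days). An exact sign-flip permutation over the days gave p = 0.0312, the smallest possible over 6 days, adjusted 0.0391. With each tile weighted equally the difference was 0.520 points, and without the CpGs above 20% at the start it was 0.0797 points (exact sign-flip permutation p = 0.0312, adjusted 0.0521). With edges set at the ends of each tile, whatever its neighbour, it was 0.134 points (exact sign-flip permutation p = 0.0312, adjusted 0.0417). The days belong to 1 course and are not separate cultures. The difference was 0.409 points on day 2 and 0.0955 on day 7, so its SE includes this decline. On days 0 and 1 the edge stood at 0.956% and 0.801%, against 0.403% and 0.362% inside. The same CpGs were read on all days, so the test over days 2 to 7 cannot be told apart from this starting difference.

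The level went down step by step from the border inward. On day 7 it was 0.287% within 100 bp of the outer end, 0.208% at 100 to 200 bp, 0.169%, 0.159% and 0.144% in the next 3 steps of 100 bp, and 0.125% at 500 bp or more. On day 2 the same steps read 0.940%, 0.546%, 0.398%, 0.334%, 0.315% and 0.230%. Of the CpGs above 20% at the start 56.4% were edge CpGs, as were 39.9% of those between 5% and 20% and 24.2% of those at 0. The edges also followed their outer neighbour. At 173 ends beside a tile of 80% or more on days 0 and 1, edge CpGs read 1.33% on day 7 and 5.46% on day 2. Beside the 1383 neighbours between 20% and 80% they read 0.499% on day 7 and 1.83% on day 2, and beside the 934 between 5% and 20% 0.214% and 0.546%. At 2880 ends whose neighbour had fewer than 3 CpGs past the read minimum, they read 0.365% and 1.15%. Beside the 4285 neighbours at 5% or less, 52417 edge CpGs read 0.114% on day 7 and 0.212% on day 2. That was below the pooled inner CpGs, at 0.148% and 0.314%.

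Over all 6 days, edge CpGs lost a larger share of their methylation per day than inner CpGs, a call that depended on single days. Their log slope over days 2 to 7 was -0.216 ± 0.020 per day, a loss of 19.4% of the level per day, and that of inner CpGs was -0.160 ± 0.018, or 14.7% (SE, n = 6). The difference was -0.0566 ± 0.0135 per day (exact permutation p = 0.0111, adjusted 0.0185). It did not pass when day 2, 4, 6 or 7 was left out (adjusted 0.0833, 0.0556, 0.104 and 0.0833 in exact permutations of 5 days). The edge was 1.65 times the inner level on day 7 and 2.30 times on day 2. After subtraction of each day's level at CpGs with 0 at the start, the difference was -0.0262 and did not pass (exact permutation p = 0.264). Without the CpGs above 5% at the start it was -0.0047 (exact permutation p = 0.753).

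**Figure D3:**
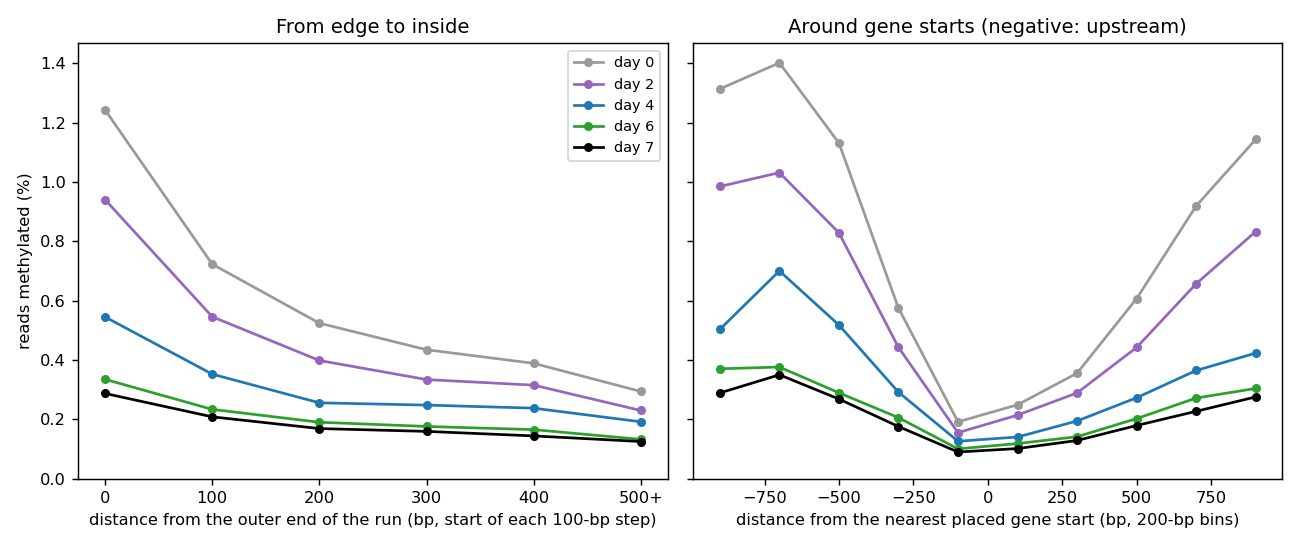
Share of methylated reads in member tiles on days 0, 2, 4, 6 and 7, at left by distance from the outer end of the run of tiles and at right by distance from the nearest placed gene start in 200-bp bins. On day 7 the level was 0.287% in the outermost 100 bp and 0.0896% in the 200 bp before the start.

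The lowest levels lay around gene starts. In the 200 bp before a placed start member CpGs read 0.0896% on day 7 and 0.155% on day 2, and in the 200 bp after it 0.101% and 0.214%. At 600 to 800 bp upstream they read 0.350% on day 7 and 1.03% on day 2, and at 600 to 800 bp downstream 0.227% and 0.657%. The 139606 CpGs within 250 bp of a placed start stood at 0.0999% on day 7 and 0.192% on day 2, whereas the 149636 CpGs over 1000 bp from any placed start stood at 0.218% and 0.527%. Starts that could not be placed may lie near some of these. Within the members, the level also went with density. The 185 tiles with 100 or more listed CpGs read 0.137% on day 7, against 0.314% on day 2, whereas the 4814 tiles with 40 to 59 read 0.191% on day 7, against 0.464% on day 2.

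Set beside methylated tiles with the same minimum of 40 listed CpGs, the members as a whole lost a smaller share per day. Their log slope over days 2 to 7 was -0.182 ± 0.017 per day, or 16.6% of the level per day, against -0.312 ± 0.009 and 26.8% in the 1290 dense tiles at 80% or more on days 0 and 1. Density above the minimum was not matched between these sets. The difference was 0.130 ± 0.013 per day (exact permutation p = 0.00278, adjusted 0.00694) and was 0.0623 after the background was subtracted from the members (exact permutation p = 0.00556, adjusted 0.0139). On day 7 the members kept 41.2% of their day 2 level and the methylated dense tiles 21.6%. Member CpGs at 0 on days 0 and 1 kept 79.3%. At the limit of the rule, the 131 tiles at 4 to 5% on days 0 and 1 read 0.930% on day 7 and 3.55% on day 2, and the 107 dense tiles at 5 to 6% read 1.03% on day 7. The 626 member tiles with 40 or 41 listed CpGs read 0.213% on day 7, and 682 tiles with 38 or 39 that met the other conditions read 0.199%. The read condition had 3 tiles just inside it and 2 just outside.

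Trends of single tiles were tested by quasi-binomial regression of methylated against unmethylated reads on day, over days 2 to 7, in all 201361 autosomal tiles with 3 or more CpGs past the read minimum and 10 or more reads in every library. Of all tiles tested, 89% fell and 0.118% rose at an adjusted p below 0.05. Of the 8067 members 8066 could be tested, and 1558 (19.3%) fell, 90 (1.12%) rose and 6418 did not pass. The fit failed in some tiles with methylated reads on day 2 and none later, where the slope ran to its limit of -5. Such tiles, among them those at CCND3 (11 of 1594 reads on day 2) and RPS19 (3 of 2442), could not pass. They stand among the 6418, their number was not counted, and the count of falls leaves them out. The median fitted change between days 2 and 7 was -0.0446 points over the members and -49.3 points over all tiles. It was -0.820 points in the members that fell and 0.213 points in those that rose. Because most tiles of the table fell, the adjusted threshold let through tiles with an unadjusted p of up to 0.0445. The nominal rate of that limit in 1 direction is 2.22%, above the 1.12% that rose, so the count of rises does not show that member tiles gained methylation. The 0.118% over all tiles is no like comparison, since nearly all of that table fell. With a Bonferroni limit over the whole table, added after seeing the data, 16 members fell and 0 rose, while 1633 fell and 96 rose at an unadjusted p below 0.05.

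The number that rose rested on few reads and on single libraries. Of the 90, 58 had fewer than 10 methylated reads over days 2 to 7 together, and the lowest unadjusted p among them was 0.000112. Without day 2, 6 or 7 the count was 38, 31 and 48, and without day 3, 4 or 5 it was 76, 71 and 81. The number that fell was 502 without day 2 and 1114 to 1571 without any other day. Without moderation of the dispersion 919 members fell and 16 rose.

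**Figure D4:**
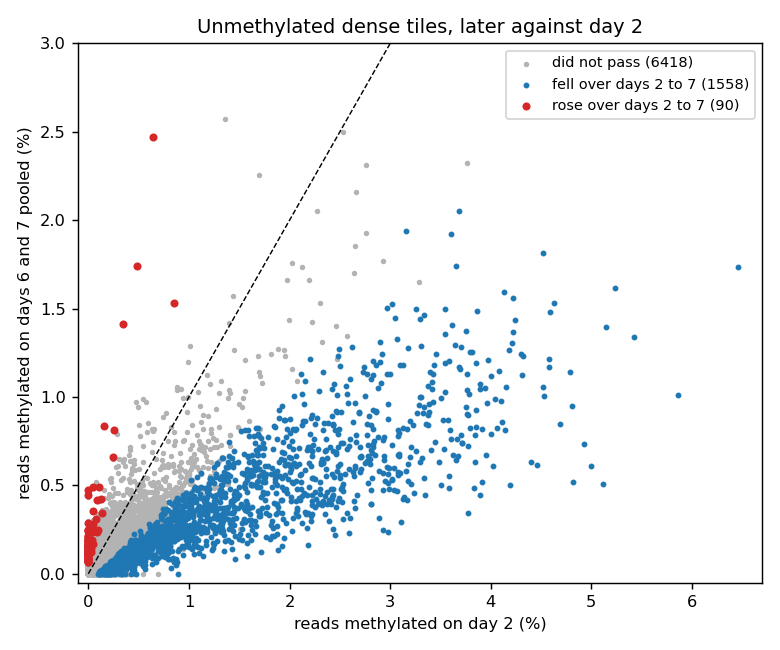
Share of methylated reads on days 6 and 7 pooled against day 2, 1 point per member tile, coloured by the tile test over days 2 to 7. The dashed line marks equal levels. The 1558 tiles that fell lie below it, and most of the 90 that rose lie close to 0 on both axes, with 4 at 1% or more on days 6 and 7.

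The 5 largest fitted falls were -5.02 to -4.32 points. At PLBD2, which encodes a lysosomal phospholipase B-like protein, the tile chr12:113796001-113797000 read 4.97%, 4.41%, 5.86%, 2.78%, 0%, 1.75%, 1.01% and 1.02% on days 0 to 7, with 20 methylated of 1967 reads on day 7 and 128 of 2185 on day 2. The 0% on day 4 was 0 of 155 reads, which allows up to 1.94%. The fitted change was -4.85 points (moderated quasi-binomial F test with limma, adjusted p = 6.1e-07). Most of its methylation sat at the upstream edge, just outside the bases printed above. A CpG 296 bp before the start gave 53.7% of the tile's methylated reads of days 2 to 7 and read 7.75% on day 7 and 39.1% on day 2. A CpG 306 bp before the start read 17.1% on day 7 (7 of 41 reads) and 64.1% on day 2 (41 of 64).

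At ZCCHC14, which encodes a CCHC zinc-finger protein, the tile chr16:87526001-87527000 read 3.14%, 4.92%, 5.43%, 5.18%, 0.783%, 1.68%, 1.63% and 1.09% on days 0 to 7. The fitted change was -4.32 points (moderated quasi-binomial F test with limma, adjusted p = 7.8e-07). Here methylation lay both at the start and at the upstream border of the tile. The 8 CpGs between 15 and 41 bp after the start read 3.17 to 8.11% on day 7, against 30.4 to 57.5% on day 2. The CpGs 362 and 369 bp before it read 5.88% and 5.56% on day 7 (2 reads each), against 25.9% and 29.6% on day 2. The tiles chr10:88516001-88517000, chr7:1543001-1544000 and chr1:247274001-247275000 had no placed start and fitted changes of -5.02, -4.76 and -4.32 points. They read 1.45%, 0.341% and 0.616% on day 7, against 6.45%, 5.11% and 4.99% on day 2. On day 0 they had read 3.78%, 5.62% and 5.50%, and on day 1 4.89%, 3.58% and 2.66%. Taking the largest fitted falls favours tiles with a high day 2, and at chr10, PLBD2 and ZCCHC14 day 2 was above both earlier days.

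The 5 largest fitted rises, read with that limit on the count of rises, were 0.837 to 1.87 points. In chr5:134364001-134365000, with no placed start, 2.56%, 1.09%, 0.641%, 1.65%, 1.49%, 1.04%, 2.85% and 2.11% of reads were methylated on days 0 to 7. Day 7 was thus below day 0, and the fitted rise of 1.87 points (moderated quasi-binomial F test with limma, adjusted p = 0.000777) started from a low day 2. The tile before it, chr5:134363001-134364000, read 3.42%, 0.749%, 1.36%, 3.17%, 0.760%, 0.478%, 3.27% and 1.96%. Its 2.57% on days 6 and 7 pooled was the highest level of any member, and its trend did not pass (adjusted p = 0.123 in the same limma-moderated test). In both tiles the methylated reads were spread over many CpGs, 57 of 71 and 44 of 51 having at least 1 on days 2 to 7.

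PAX6 encodes a transcription factor of eye and forebrain development. Its tile chr11:31826001-31827000 read 0.380%, 0.431%, 0.483%, 0.543%, 2.23%, 1.32%, 1.94% and 1.53% on days 0 to 7, with 24 methylated of 1566 reads on day 7 and 9 of 1863 on day 2. The fitted change was 1.30 points (moderated quasi-binomial F test with limma, adjusted p = 0.00897). A single CpG 311 bp before the start gave 37.5% of the methylated reads of days 2 to 7. It read 0%, 0%, 9.30%, 0%, 0%, 25%, 26.9% and 18.6% on days 0 to 7, with 8 of 43 reads on day 7 and 4 of 43 on day 2, and with 4 to 6 reads on days 3 to 5. On day 7 alone, 4 CpGs 150 to 171 bp before the start, within the printed bases, read 4.65 to 8.89% (2 to 4 reads each), and all 4 had 0 on days 2 and 6.

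At CYBA, which encodes a membrane subunit of the phagocyte NADPH oxidase, chr16:88717001-88718000 read 0.538%, 0.306%, 0.158%, 0%, 0.467%, 0.360%, 0.699% and 0.974% on days 0 to 7, with 26 of 2670 reads on day 7 and 5 of 3156 on day 2 (moderated quasi-binomial F test with limma, adjusted p = 0.000304). The tiles chr5:68711001-68712000 and chr5:149546001-149547000 had no placed start, and read 1.66% and 1.82% on day 7, against 0.345% and 0.850% on day 2. On day 0 they had read 0.281% and 1.09%, and on day 1 0.795% and 1.31%. Taking the largest fitted rises favours tiles with a low day 2. At CYBA, chr5:134364001-134365000 and chr5:149546001-149547000 day 2 was below both earlier days. Of the 5 tiles with the highest level on days 6 and 7, none fell and 1 rose, chr5:134364001-134365000. At the start of the long non-coding RNA LINC02323, chr14:103011001-103012000 read 3.87%, 4.92%, 3.76%, 1.58%, 0.446%, 2.67%, 2.15% and 2.50% on days 0 to 7. The other 2, chr19:47778001-47779000 and chr2:237068001-237069000, read 2.61% and 2.47% on day 7, against 2.53% and 2.76% on day 2.

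**Figure D5:**
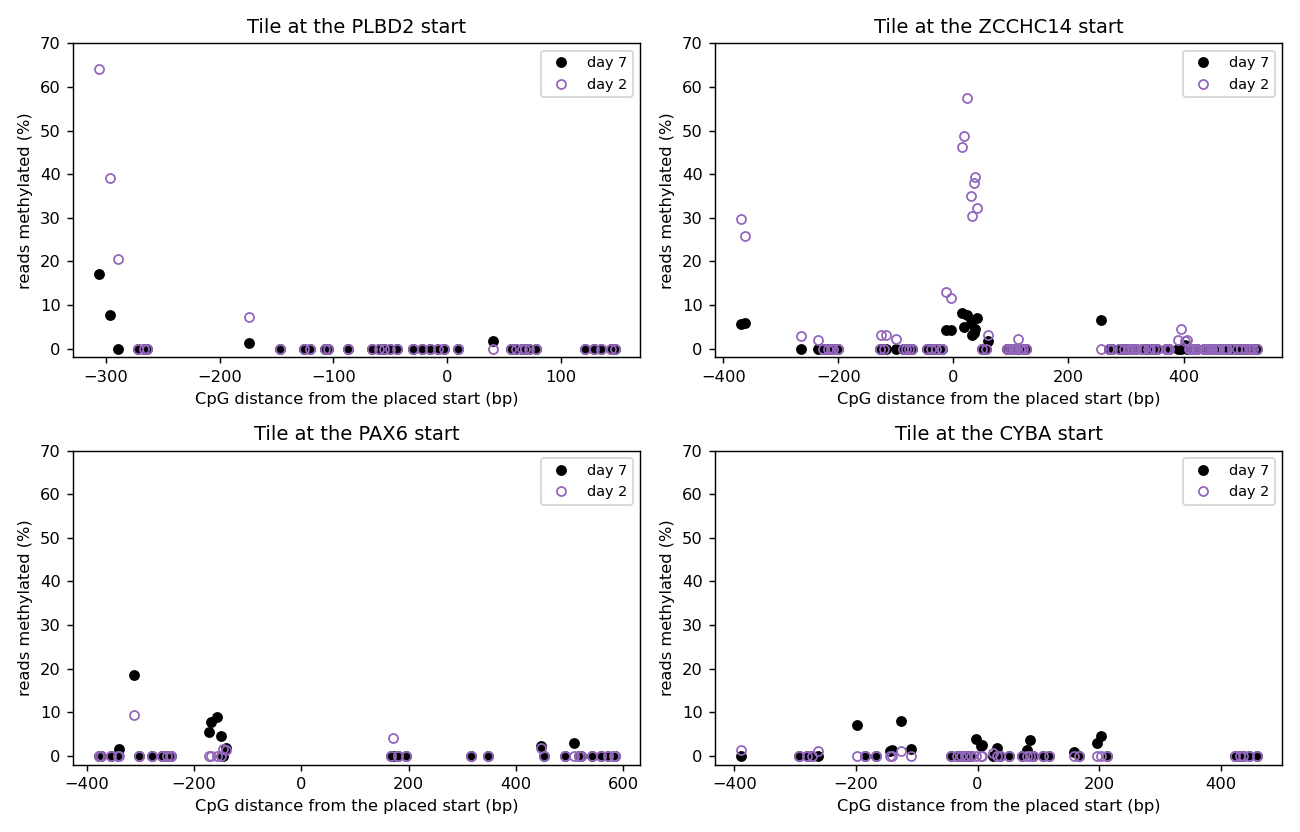
Share of methylated reads at each measured CpG of the tiles at PLBD2, ZCCHC14, PAX6 and CYBA on day 7 (filled) and day 2 (open), by distance from the placed start. At PLBD2 the CpG at 296 bp before the start reads 7.75% on day 7 and 39.1% on day 2, and at PAX6 the CpG at 311 bp before the start reads 18.6% and 9.30%.

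Gains of single CpGs were looked for among the 342638 CpGs at 0 on days 0 and 1. On day 6, 55 of them, in 54 tiles, read 10% or more, with a median of 22 reads. On day 7, which did not choose them, 46 of the 55 had no methylated read and together they read 1.31% (20 of 1528 reads, Wilson 95% interval 0.849 to 2.01%), against 0.0825% over all CpGs at 0 at the start. On day 2, which did not choose them either, the same 55 had already read 1.86% (33 of 1773 reads). Of the 67 such CpGs at 10% or more on day 2, 59 had no methylated read on day 7 and together they read 0.582%. A single CpG was at 10% or more on both day 6 and day 7, the one 311 bp before PAX6 named above. It gave 8 of the 20 methylated reads of the 55 on day 7.

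Gene groups were described by the member tiles that hold their starts, and single rises among them carry the same limit. Single falls were called at the same threshold, which let through an unadjusted p of up to 0.0445 in the tile test, and some rest on few reads. Among all 4031 member tiles with a placed start, 686 (17.0%) fell and 46 (1.14%) rose, and the median on days 6 and 7 was 0.0835%. CpGs at 0 at the start read 0.0880% and 0.0825% on days 6 and 7. This median and those of the groups lie near that background, and differences between groups were not tested. Of 23 tiles of lineage transcription factors 3 fell, those of PAX2, SOX1 and TBX1, and 1 rose, that of PAX6, with a median of 0.103%. Of 7 HOX tiles 1 fell, that of HOXD11, with a median of 0.0904%. It had 5 methylated of 1531 reads on day 2 and 1 of 1565 on day 7 (moderated quasi-binomial F test with limma, adjusted p = 0.0399). Of 12 tiles of respiratory chain and ATP synthase genes 1 fell, that of NDUFS1, a subunit of complex I, which read 0.324% on day 7 and 2.48% on day 2 (median of the group 0.0963%). Of 9 tiles of replication licensing and cell cycle genes 2 fell, that of the cyclin gene CCNE1 and 1 of the 2 tiles of MCM7, a subunit of the replicative helicase, and 1 rose, that of RFC4 (median 0.109%). The fit failed at CCND3, which read 0.690% on day 2 (11 of 1594 reads) and 0% on day 7 (0 of 1253), so its fall is not in the count. Of 4 tiles of pluripotency and stem cell genes (KLF4, LIN28B, TFCP2L1 and UTF1) none passed, with a median of 0.106% and a highest level of 0.177%.

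Of 6 ribosomal protein tiles 1 fell, that of RPL12, and 1 rose, that of RPS29, with a median of 0.137%. The fit failed at RPS19, which had 3 methylated of 2442 reads on day 2 and none later. The tile shared by the starts of RPS28, a protein of the small ribosomal subunit, and NDUFA7, of complex I, read 3.72%, 3.56%, 2.66%, 2.44%, 1.60%, 4.11%, 2.28% and 2.03% on days 0 to 7 and did not pass (adjusted p = 0.439 in the limma-moderated test). It was the highest tile of both groups on days 6 and 7, at 2.16%. Of 8 tiles of DNA methylation enzymes and their partners 2 fell and 1 rose (median 0.126%). The tile at the DNMT1 start, chr19:10305001-10306000, read 5.68%, 2.72%, 3.86%, 6.97%, 0.360%, 0%, 1.04% and 0.804% on days 0 to 7 and fell (moderated quasi-binomial F test with limma, adjusted p = 1.7e-05). UHRF1, whose protein brings DNMT1 to hemimethylated CpGs, had a tile that rose on 9 methylated reads over days 2 to 7. It read 0.267% on day 7 (6 of 2243 reads) and 0% on day 2 (0 of 2569, which a count of 0 limits to 0.117%). On days 0 and 1 it had read 0.0985% (3 of 3046 reads) and 0.133% (2 of 1501). The UHRF1 tile beside it fell to 0.173% on day 7, against 0.464% on day 2. DNMT3A read 0.0480% on day 7 (2 of 4166 reads) and 0.116% on day 2 (5 of 4308) and did not pass (adjusted p = 0.359 in the same limma-moderated test).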

How the data were processed

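The 8 deposited files list 1 CpG per line with its methylated and total reads. Per the labels, RRBS followed a published protocol adapted to few cells. The submitters' processing notes name the build hg19, and the aligner, caller and filters were not given in the sources used. The score the authors deposited, 1000 times the methylated share, was not used, and the other deposited values, the read numbers themselves, were joined by position. No molecular identifiers mark single molecules, so Wilson 95% intervals and limits behind a 0 (3 reads) cover counting error only.

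Levels are pooled reads. Days 0 and 1 chose the tiles, so days 2 to 7 were tested, by exact permutation of days or signs with Benjamini-Hochberg over 5 tests. The p-values of slopes measure how far the values follow the order of the days, and that of the edge whether its days share a sign. All come from 1 course, so none measures a spread between cultures. Tiles were fitted in R 4.3.3 with limma 3.58.1 (squeezeVar, dispersion of 1 or more, F test, Benjamini-Hochberg over all tiles), tested on simulated data. Other steps used Python 3.11.15 and scipy 1.17.1. Alternatives changed the read, density and level limits, edge width, weighting, moderation, test and days used.

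The members, lists, tests and alternatives were chosen with earlier results of these data known. Named tiles are the 5 largest falls and 5 largest rises past the threshold and the 5 highest on days 6 and 7. The placing of RefSeq promoters (35116, of which 19809 held 10 or more CpGs) and the gene lists were added with the files in view, and genes outside the named tiles were named after their values were seen. An hg19 genome and annotation were not used here.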

Additional observations from a re-analysis of the deposited data

Results flagged for a closer look

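The X chromosome lay outside the comparisons, which were of autosomes. By the same rule 220 X tiles with 7037 CpGs were found. On day 7 they read 0.176% methylated (394 of 223434 reads, Wilson 95% interval 0.160 to 0.195%), beside 0.172% in the autosomal members. They were listed here because this is above what a count of 0 would allow (0.00134%), a bar that any background passes: autosomal CpGs at 0 at the start read 0.0825% on day 7. On day 2 the X tiles read 0.329%, beside 0.418%. The difference between X and autosomal tiles was not tested.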

How the results depend on the processing

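Alternatives were run for the 5 library tests and the 2 counts of member tiles, and the 5 tests kept their direction in each. The profiles by border, neighbour, gene start and density, the single-CpG gains and the gene groups were not rerun. The fall of the members passed under all but 2: without CpGs above 5% at the start (-0.0154 points per day) and in the deep libraries alone (-0.0512), where 3 days cannot reach 0.05. Leaving out 1 of days 2 to 7 gave -0.0536 to -0.0478. The background trend at CpGs with 0 at the start passed nowhere (-0.0135 to -0.0038 with 1 day left out). The edge difference, 0.214 points, could not pass with 1 day left out (0.176 to 0.238), since 5 days allow no p below 0.0625, nor in the deep libraries (0.206). It missed the adjusted threshold with tiles at 2% or less (0.0957), with 60 or more listed CpGs (0.167) and without CpGs above 20% (0.0797) or 5% (0.0334) at the start. Each tile weighted equally, it was 0.520. The faster log rate of edges missed it in the deep libraries (-0.0694), at 2% or less (-0.0384), with 60 or more listed CpGs (-0.0490), with background subtracted (-0.0262), without CpGs above 20% (-0.0263) or 5% (-0.0047), and without day 2, 4, 6 or 7 (-0.0668 to -0.0371 over the 6). The rate difference from methylated dense tiles missed it in the deep libraries only (0.131), with 0.120 to 0.142 when 1 day was left out. Counts of member tiles that fell were 919 without moderation, 1016 at 2% or less, 627 with 60 or more listed CpGs, 16 under Bonferroni and 502 to 1571 with 1 day left out. Counts that rose were 16 without moderation, 31 in the deep libraries, 40 with 60 or more listed CpGs, 41 by Fisher's exact test of days 6 and 7 against day 2 (two-sided by doubling), 0 under Bonferroni and 31 to 81 with 1 day left out. The cause of these shifts was not tested. No paired analysis was possible because each day has 1 library. Depth limits single tiles on the shallow days, where the median tile had 198 to 245 reads.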
